A study of Mus musculus with 46 samples.

Results

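The genes described here are 41 genes of the DNA replication machinery, chosen by gene symbol from 4 tables of microglial RNA. The rule used no measured value. All 41 were listed in every table, among 24824 gene symbols in the series as a whole. RNA was measured by bulk sequencing of microglia, the resident macrophages of the brain, in 46 libraries sorted from control and Dicer-deficient mice. Dicer cuts precursor microRNAs into their mature form. The series was made to ask how the loss of Dicer changes the proliferation and the inflammatory response of microglia. Whether each library came from a mouse of its own is not labelled, so p-values here reflect variation among libraries that may be technical.

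The developmental table covered 3 ages of Dicerfl/fl controls, namely 4 libraries from embryonic day 14 (E14), 5 from newborns (postnatal day 0, P0) and 5 from adults of 6 to 8 weeks, together with 2 Cx3cr1Cre:Dicerfl/fl libraries at P0. Cx3cr1Cre is active in microglia and in other cells that express or have expressed Cx3cr1. The other 3 tables came from mice of 10 to 12 weeks. There the controls were Cx3cr1CreER:Dicer+/-, so they carried the tamoxifen-inducible Cre and 1 Dicer copy, and the Dicer-deficient mice were labelled Cx3cr1CreER:Dicerfl/-. The adult table held 4 control and 3 Dicer-deficient libraries at steady state. The total brain and hippocampus tables added mice killed 6 h after an injection of lipopolysaccharide (LPS, an endotoxin of bacteria that sets off inflammation) into the peritoneum at 1 mg/kg. In total brain, controls numbered 3 at steady state and 4 with LPS, and Dicer-deficient libraries 3 and 4. In the hippocampus they numbered 2 and 2, and 3 and 2. All cells were sorted as CD11b+ Ly6C- Ly6G- cells. The gate was CD45int F4/80+ in every group except E14, where it was CD45+ F4/80hi.

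DNA replication is prepared when the origin recognition complex, Cdc6 and Cdt1 load the ring-shaped helicase Mcm2 to Mcm7 onto DNA. Cdc45 and the GINS complex then switch the helicase on, DNA polymerase alpha with its primase lays down primers, and polymerases delta and epsilon copy the strands on the sliding clamp Pcna. Many of these genes are transcribed as cells enter S phase, under the control of E2F factors, so their RNA is widely used as a sign of dividing cells. Microglia divide in the embryonic and newborn brain and turn over slowly in the adult.

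Promoters of the members are shown first because E2F sites are the best known shared feature of this gene set. Of the 41 members, 34 had a promoter window in the RefSeq table (build GRCm38.p6), which runs from 250 bases before to 50 bases after the start of the gene. An E2F-type site, here any of the letters TTTGGCGC, TTTGCCGC, TTTCGCGC and TTTCCCGC on either strand, stood in the window of 15 of these 34 members, or 44.1%. The share was 2.6% of all 27025 genes in the table and 4.74% of the 9408 genes of the table that were tested between P0 and adult. A CCAAT box (CCAAT, either strand) stood in 64.7% of the members, 41.1% of all genes and 43.2% of the tested genes. A site of the cell cycle homology type (TTTGAA or TTCGAA, either strand) stood in 20.6% of the members, 21.7% of all genes and 16.3% of the tested genes. In 4 members an E2F-type site started outside the bounds of the gene itself, on its 5′ side, and these stretches are printed 5′ to 3′ in the direction of the gene. Capitals mark the sites. The 12 capitals in Mcm6 and in Mcm5 are 2 overlapping sites, 1 on each strand.
Mcm6, chr1:128359736-128359825, minus strand: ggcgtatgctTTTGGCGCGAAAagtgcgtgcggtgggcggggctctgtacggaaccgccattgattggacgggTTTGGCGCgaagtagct
Mcm5, chr8:75109334-75109383, plus strand: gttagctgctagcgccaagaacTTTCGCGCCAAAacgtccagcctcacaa
Gins3, chr8:95633499-95633548, plus strand: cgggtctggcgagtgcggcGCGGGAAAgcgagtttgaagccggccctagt
Rfc3, chr5:151651209-151651258, minus strand: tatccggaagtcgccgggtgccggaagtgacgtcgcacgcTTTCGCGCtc

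Libraries held 898451 to 4573063 reads. Values are reads per gene scaled by 1 factor per library, called normalized reads below. They are comparable between libraries of 1 table, not between tables and not between genes. Microglial markers were high in every group, with all 12 of them above 0 and their sum between 29401 and 231087 normalized reads. Dicer1 RNA, the target of the deletion, overlapped between the genotypes in every setting, and no test of it was made. It had means of 137 without Dicer and 119 in controls in the adult table, and 85.9 and 120 in total brain and 37.2 and 67.8 in the hippocampus at steady state. After LPS the means were 112 and 107 in total brain and 87 and 85.4 in the hippocampus. At P0 the Dicer-deficient libraries read 85.4 and 195 and the 5 controls 57.8 to 88.7. Reads outside the deleted part would still be counted, so this level does not check the labels.

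Between P0 and adulthood, 37 of the 41 members fell and none rose (limma on log2(value + 1), Benjamini-Hochberg adjusted p under 0.05 over all genes tested). Of all 12357 genes tested, 24.9% were called lower and 20.9% higher. The median difference was -1.90 on the log2 scale over the members and -0.04 over all genes. In 34 of the 41 the P0 and adult libraries did not overlap, a pattern found in the same direction in 18.6% of all genes. The log2 scale with 1 added understates the change of genes with few reads. In bulk RNA, fewer cells in S phase and less RNA per cell cannot be told apart.

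All 5 origin licensing genes and all 6 helicase subunits fell. Orc1 read 10 to 31.7 at P0 and 0 to 0.877 in adults, at most 1 read. It passed the filter through its P0 libraries alone, so a fall was the only call it could get. Cdc6, the loader of the helicase, read 48.6, 40.6, 42.7 and 46 at E14, 20.4, 31.7, 25.1, 17.1 and 36.2 at P0, and 2.15, 0.877, 0.863, 0 and 1.01 in adults. Adult libraries held at most 3 reads of it, and the fall from P0 was -3.82 ± 0.31 (log2 difference ± SE, adjusted p = 2.69e-09). Mcm6, a helicase subunit, read 387, 353, 349 and 364 at E14, 347, 278, 239, 123 and 244 at P0, and 27.3, 24.6, 30.2, 25.4 and 24.2 in adults. Here the 5 adult libraries lay close together and far below the lowest P0 value (log2 difference -3.10 ± 0.20, adjusted p = 1.05e-10). The other helicase subunits fell too, Mcm2 by 3.52, Mcm5 by 3.16, Mcm4 by 3.05, Mcm3 by 1.71 and Mcm7 by 1.67 on the log2 scale. Mcm7 overlaps Ap4m1 and hosts 3 microRNAs, Mir25, Mir93 and Mir106b, in the RefSeq gene table, and whether strand was used in counting is not given in the sources used here.

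Among the genes that switch the helicase on, Mcm10, Cdc45, Gins1 and Gins2 fell, and Gins3 and Gins4 did not pass. Mcm10, which joins the helicase as it starts to unwind DNA, fell most of all members. It read 34.9, 31.7, 37.2, 18.9 and 40.9 at P0 and 0, 1.75, 0, 0 and 1.01 in adults (log2 difference -4.54 ± 0.34, adjusted p = 8.45e-10). The members of GINS, a complex of 4 subunits that binds the helicase, differed in their course. Gins2 read 229, 241, 244 and 250 at E14, 116, 119, 111, 90.3 and 119 at P0, and 14.4, 19.3, 12.9, 9.14 and 12.1 in adults, so the 3 stages did not overlap. Gins4 read 116, 124, 107 and 115 at E14, 80, 67.8, 69.2, 57.8 and 68.9 at P0, and 88.3, 70.2, 48.3, 72.1 and 61.5 in adults. Its P0 and adult libraries were mixed (log2 difference -0.03 ± 0.19, adjusted p = 0.9). Gins3 read 16, 21.2, 25.1, 11.8 and 19.9 at P0 and 14.4, 11.4, 14.7, 11.2 and 12.1 in adults, again with overlap (log2 difference -0.49 ± 0.26, adjusted p = 0.127).

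Of the 9 primase and polymerase genes, 7 fell. Pole, the catalytic subunit of polymerase epsilon, read 52.3, 42.3, 47.9, 26 and 50.2 at P0 and 0.718, 2.63, 0.863, 5.08 and 1.01 in adults, a log2 difference of -4.01 ± 0.34 (adjusted p = 5.24e-09). Prim1, the catalytic primase subunit, fell from a mean of 72.1 ± 19.3 to 9.62 ± 3.99 (SD, n = 5 each). Its partner Prim2, the large primase subunit, read 49.4, 62.2, 58.5, 38.4 and 40.9 at P0 and 51.7, 40.4, 27.6, 22.3 and 31.2 in adults. Those ranges overlapped, and Prim2 did not pass (log2 difference -0.55 ± 0.26, adjusted p = 0.0863). For Pold2, a subunit of polymerase delta, the values were 72.7, 56.6, 51.7, 40.1 and 58.4 at P0 and 45.9, 34.2, 28.5, 36.6 and 48.4 in adults (log2 difference -0.52 ± 0.21, adjusted p = 0.0527). Pold3, another delta subunit, had one of the smallest falls, with 129, 121, 138, 77.3 and 103 at P0 and 67.5, 60.5, 83.7, 71.1 and 62.5 in adults (log2 difference -0.69 ± 0.17, adjusted p = 0.00213). A single P0 library, control 4, brought the Pold3 groups into overlap.

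All 6 genes of the clamp and its loader fell, with a median of -1.08, the smallest of the role groups of more than 1 gene. Pcna read 204, 358, 407, 208 and 386 at P0 and 91.2, 116, 84.6, 81.3 and 84.7 in adults, so the adult libraries stayed below every P0 library but well above 0 (log2 difference -1.71 ± 0.18, adjusted p = 1.87e-07). Rfc1, the large subunit of the clamp loader, read 119, 115, 128, 82 and 113 at P0 and 55.3, 51.8, 55.2, 96.5 and 86.7 in adults (log2 difference -0.72 ± 0.19, adjusted p = 0.00477). Rfc2 read 297, 237, 211, 204 and 266 at P0 and 170, 172, 136, 153 and 138 in adults, the smallest called change (log2 difference -0.65 ± 0.16, adjusted p = 0.00269). The Rfc1 groups overlapped and the Rfc2 groups did not.

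All 4 genes of single-strand binding and Okazaki fragment processing, all 4 genes of nucleotide supply and Uhrf1 fell. Fen1, which trims the flaps of Okazaki fragments, read 263, 179, 229 and 248 at E14, 141, 134, 122, 125 and 137 at P0, and 34.5, 36.8, 32.8, 29.5 and 39.3 in adults. Each stage lay below the one before it in every library (P0 to adult log2 difference -1.90 ± 0.14, adjusted p = 8.51e-10). Rrm1, the large subunit of ribonucleotide reductase, read 323, 339, 318 and 294 at E14, 201, 165, 184, 126 and 181 at P0, and 44.5, 34.2, 32.8, 22.3 and 22.2 in adults. Its small subunit Rrm2 read 181, 156, 194 and 235 at E14, 50.9, 69.1, 51.7, 49.6 and 65.4 at P0, and 4.31, 5.26, 2.59, 0 and 0 in adults. Both subunits of the enzyme showed 3 separate stages, and the P0 to adult fall was -2.45 ± 0.20 for Rrm1 (adjusted p = 3.55e-09) and -4.47 ± 0.44 for Rrm2 (adjusted p = 5.03e-08). Uhrf1, which guides DNA methylation to newly copied DNA, read 26.2, 33.6, 28.9, 21.2 and 36.2 at P0 and 0, 1.75, 4.31, 2.03 and 0 in adults (log2 difference -3.80 ± 0.40, adjusted p = 1.1e-07).

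**Figure D1:**
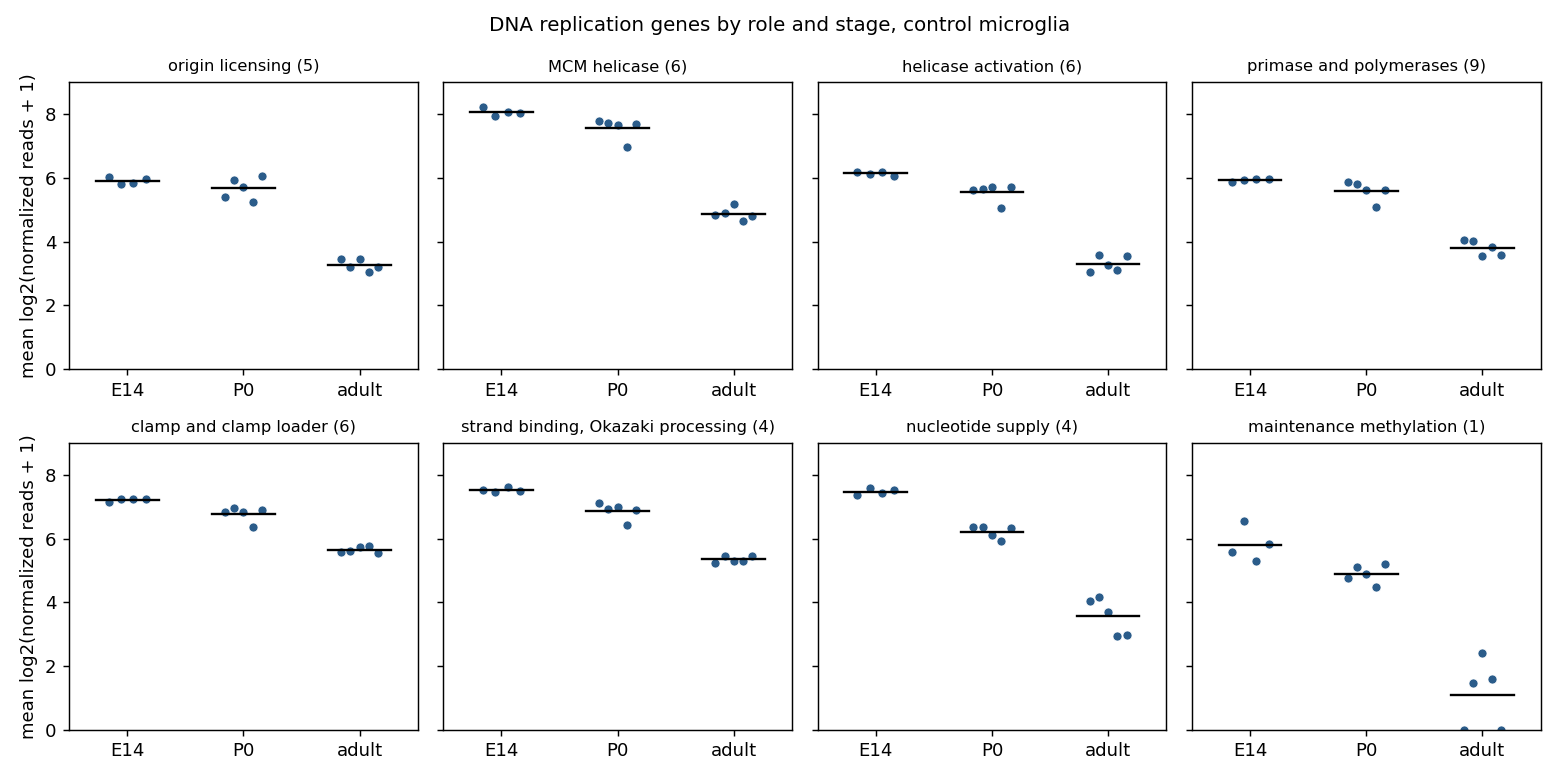
Each panel shows 1 role group of the replication genes, with the number of genes in brackets. The y axis is the mean of log2(normalized reads + 1) over those genes, each point is 1 control library, and the bar is the mean of the libraries. The helicase lay at 7.93 to 8.24 at E14, 6.96 to 7.80 at P0 and 4.64 to 5.17 in adults, and in most panels 1 P0 library, control 4, sits below the others.

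Promoter sites and stage changes were set side by side as a description. The 15 members with an E2F-type site had a median P0 to adult difference of -2.16 (range -3.82 to -0.49), and the 19 members without one had -1.51 (range -4.54 to -0.52). Mcm5 and Mcm6, each with overlapping sites in the stretches printed above, fell by 3.16 and 3.10 on the log2 scale. Rfc3 fell by 0.77, and Gins3 did not pass. The ranges overlapped almost in full.

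From E14 to P0, 12 of the 41 members fell and none rose. Of all 13217 genes tested, 14.9% were called lower and 8.74% higher. The members had a median of -0.53 and all genes -0.11. All 4 nucleotide supply genes were among the 12, and none of the 9 primase and polymerase genes was. Dut, which removes dUTP from the nucleotide pool, read 112, 175, 114 and 130 at E14 and 48, 48.5, 25.8, 44.8 and 49 at P0, with no overlap (log2 difference -1.61 ± 0.27, adjusted p = 0.000277). Rrm2 fell by 1.72 ± 0.47 (adjusted p = 0.0109), Gins2 by 1.12 ± 0.21 (adjusted p = 0.000699) and Rrm1 by 0.91 ± 0.21 (adjusted p = 0.00419). The others were Orc6, Mcm6, Gins4, Rfc4, Rfc5, Rpa1, Fen1 and Tyms, with falls of 0.64 to 1.18. Of the 5 origin licensing genes 1 fell, and Cdt1, a licensing factor named here after its values were seen, had a mean of 133 ± 12 (SD, n = 4) at E14 and 137 ± 34 (SD, n = 5) at P0 (log2 difference 0.00 ± 0.23).

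The E14 gate differed from the P0 gate, and the 2 cannot be told apart from the stages. Markers of neural progenitors and neurons summed to 515 to 1113 normalized reads at E14, with all 12 above 0, against 95.2 to 150 at P0 and 5.02 to 14.7 in adults. Erythroid markers summed to 489 to 906 at E14, 11512 to 47786 at P0 and 41.3 to 1790 in adults. The part of these cells in the stage differences was not tested. Dut, Fen1, Gins2, Gins4, Rpa1 and Rrm1 kept their call in all 17 alternatives. Leaving out 1 library at a time gave 7 to 11 lower members, and each of the 9 libraries ended at least 1 of the calls of Mcm6, Orc6, Rfc4, Rfc5 and Tyms. Their adjusted p then lay between 0.0504 (Orc6) and 0.101 (Tyms). With 7 members left, E14 control 3 weighed most, and without it the values were 0.0578 for Mcm6, 0.0706 for Orc6, 0.0638 for Rfc4, 0.051 for Rfc5 and 0.077 for Tyms.

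Genes around the members followed the same stages. Of the other 40 replication genes, 31 fell from P0 to adult and 2 rose. The 2 that rose were Pold4, a small polymerase delta subunit (log2 difference 0.82 ± 0.21, adjusted p = 0.00322), and Donson, a replication fork protein (0.65 ± 0.25, adjusted p = 0.0386), chosen after their values were seen. Of 25 mitosis genes all fell, with a median of -4.42, and Top2a fell by 4.93 and Cdk1 by 4.45. Of 28 genes of E2F and S phase control, 18 fell and 4 rose. Ccne1, a cyclin of entry into S phase, fell by 4.09 and E2f1 by 3.12. From E14 to P0 the counts that fell were 8, 7 and 6 in the same 3 lists, with none that rose. Over the whole course from E14 to adult, all 41 members fell, where 31% of all 12928 genes were lower and 21.8% higher, with a median of -2.48 (all genes -0.10). Pold3 was the least stable of these calls, since it was lost in 12 of 17 alternatives. Orc1 was tested here through its E14 libraries alone, as its adult values were at most 0.877. The 3 stage comparisons share libraries, so they are not independent of each other.

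At P0, Dicer-deficient microglia had less RNA of 3 helicase subunits. The labels of the P0 controls name no Cre, so the loss of Dicer and the presence of Cx3cr1Cre cannot be told apart here. The labels assign controls 1 to 3 and both Dicer-deficient libraries to this comparison. Mcm2, Mcm4 and Mcm6 were lower and no member was higher, where 0.444% of all 13064 genes tested were called lower and 1.04% higher. The median was -0.79 over the members and -0.06 over all genes, and 38 of the 41 differences were negative. In 26 of the 41 both Dicer-deficient libraries lay below all 3 controls, against 20.6% of all genes.

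Mcm2 read 142, 139 and 115 in controls 1 to 3 and 26 and 28.1 in the Dicer-deficient libraries, a 4.73-fold difference (log2 -2.24 ± 0.30, adjusted p = 0.00641). For Mcm4 the values were 106, 125 and 122 against 15.6 and 38.6 (4.62-fold, log2 -2.21 ± 0.39, adjusted p = 0.0255). Mcm6 read 347, 278 and 239 against 109 and 92.5 (2.81-fold, log2 -1.49 ± 0.28, adjusted p = 0.0289). The 3 called subunits were thus well separated in the libraries of this comparison. Among the remaining subunits, named here after their values were seen, Mcm3 had 336, 309 and 335 against 140 and 158 (adjusted p = 0.0586), Mcm7 had 240, 223 and 214 against 135 and 84.3, and Mcm5 had 279, 271 and 262 against 255 and 102. Gins1 had the next smallest p, with means of 120 ± 8.26 (SD, n = 3) and 46.9 ± 3.47 (SD, n = 2) and an adjusted p of 0.0511. Uhrf1, the single member of its role, had a log2 difference of -0.71 and the 5 origin licensing genes a median of -0.23, the smallest of the role groups.

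**Figure D2:**
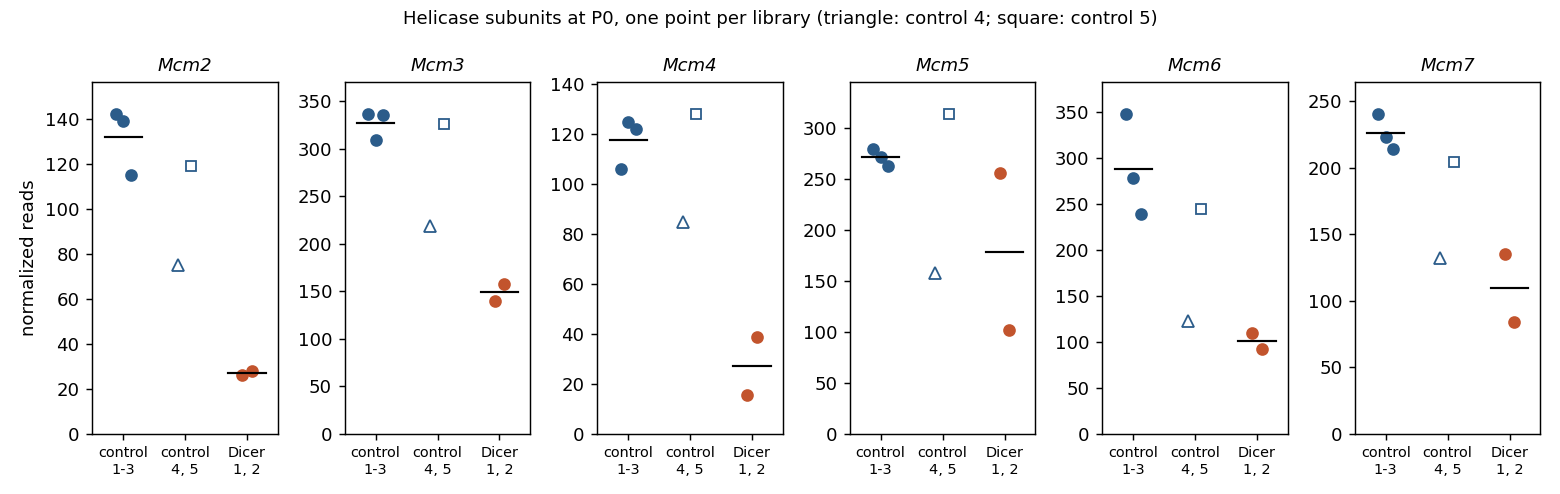
Normalized reads of the 6 helicase subunits at P0, 1 panel per gene with its own y axis from 0, 1 point per library and bars at the group means. Filled blue points are the controls of the comparison, open symbols the P0 controls outside it, and orange points the Dicer-deficient libraries. Control 5 sits with or near controls 1 to 3, and control 4 lies lower in every panel, above both Dicer-deficient libraries for Mcm2, Mcm3, Mcm4 and Mcm6.

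A P0 control outside the labelled comparison stood near the Dicer-deficient libraries. The mean of log2(normalized reads + 1) over the 41 members was 6.34, 6.39 and 6.28 in controls 1 to 3, 6.37 in control 5 and 5.76 in control 4, against 5.51 and 5.37 in the Dicer-deficient libraries. Counted per 1000000 reads of the library, the members took 2438, 2560, 2458, 1614 and 2407 reads in controls 1 to 5 and 1203 and 1246 in the Dicer-deficient libraries. So control 4 lay below the other 4 controls and above both Dicer-deficient libraries on both scales. With all P0 controls in a fit of the whole developmental table, 16 members were lower, and 18 with control 4 left out. The share of all genes given above, 0.444% lower, belongs to the fit of 5 libraries. It is no baseline for these counts, nor for those with 1 library left out. In the 5 libraries, the Dicer-deficient library 1 was the shallowest of the table at 992317 reads, so its Mcm4 value rests on 6 reads and its Mcm2 value on 10.

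The number of lower members moved with single libraries. It was 0 without control 1, 2 or 3, when the adjusted p of Mcm2 was 0.109, 0.204 and 0.059, of Mcm4 0.215, 0.325 and 0.167, and of Mcm6 0.246, 0.323 and 0.138. It was 15 without Dicer-deficient library 1 and 20 without library 2, each time with a lone library assumed to vary like the other group. The direction of the 3 helicase genes held in all 15 alternatives. Erythroid markers summed to 12824 and 7311 in the Dicer-deficient libraries, with 7 of 9 above 0, against 11512 to 47786 over the 5 P0 controls. Markers of neural progenitors and neurons summed to 101 and 83.1, with 11 of 12 above 0, against 95.2 to 150, and their part in the result was not tested.

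Of the other 40 replication genes, 2 were lower at P0 without Dicer and none higher. 2810417H13Rik, the gene of the Pcna-binding protein Pclaf, was lower by 4.09 ± 0.35 on the log2 scale (adjusted p = 0.000973), and Tipin, which steadies the replication fork, by 1.75 ± 0.35 (adjusted p = 0.0439). In the hippocampus at steady state 2810417H13Rik was called higher without Dicer (adjusted p = 0.0401), with 0 in both controls and 41.2, 43.6 and 89.1 in the Dicer-deficient libraries. It fell there after LPS to 0 in both Dicer-deficient libraries (adjusted p = 0.00313), and was also at 0 in both LPS controls. In both hippocampal tests it passed the filter through the same 3 Dicer-deficient libraries alone. Only calls in these directions were therefore possible, and their size depends on the 1 added before the logarithm. The difference between P0 and the hippocampus was not tested. Of 28 genes of E2F and S phase control, Ccnd3, a D-type cyclin, was higher by 2.01 ± 0.31 (adjusted p = 0.0137) and Cdkn1a, the cell cycle inhibitor p21, by 1.53 ± 0.31 (adjusted p = 0.0429). None of 25 mitosis genes passed (limma, median -0.59, 19 negative, 8 at an unadjusted p under 0.05).

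In adult microglia and total brain, 1 replication gene, Prim2, was higher in Dicer-deficient than in control libraries under every alternative tried, and few other members differed. Of 34 members tested in the adult table, Prim2 was higher and Mcm3 lower, where 3.15% of all 11045 genes were called higher and 2% lower. The median was 0.10 over the tested members and 0.05 over all genes. The other 7 members were not tested, since they had too few libraries with a value of at least 1.

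Prim2 read 114, 67.8, 118 and 97.6 in the adult controls and 438, 220 and 362 in the Dicer-deficient libraries, 3.34-fold higher (log2 1.74 ± 0.30, adjusted p = 0.00209). In total brain at steady state it read 65.2, 23.5 and 42.5 in controls and 162, 215 and 213 without Dicer, 4.75-fold higher (log2 2.25 ± 0.37, adjusted p = 0.0032). After LPS the total brain values were 34.1, 13.8, 39 and 29.7 against 84.2, 74.6, 80.4 and 67.3, 2.74-fold higher (log2 1.45 ± 0.32, adjusted p = 0.00893). In these 3 comparisons no control library reached the lowest Dicer-deficient one. The share of all genes so separated was not counted. Prim2 kept its call in all 14, 13 and 15 alternatives tried for them. Markers of other cells moved with genotype too. In the adult table endothelial markers summed to 84.9 to 139 without Dicer and 154 to 223 in controls (4 of 6 above 0 in both), lymphocyte markers to 49.2 to 134 and 190 to 475 (2 of 6 in both), and astrocyte and oligodendrocyte markers to 881 to 1402 and 1655 to 1885 (4 and 7 of 10). Pecam1 (log2 -2.12), Cd79b (log2 -2.10) and Slc1a3 (log2 -0.83) were the markers called there, all lower. In total brain at steady state Cd79b was lower (log2 -2.67) and Snap25 higher (log2 3.67), with lymphocyte markers at 22.2 to 29.5 without Dicer (1 of 6 above 0) and 115 to 251 in controls (2 of 6). The part of these markers in the Prim2 and Mcm3 results was not tested.

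In the hippocampus the Prim2 groups were separate too, without passing the limma test. Among the members, 5 lay higher and 4 lower in every Dicer-deficient library at steady state. After LPS these counts were 4 and 14. The share of all genes so separated was not counted. At steady state Prim2 read 50 and 56.4 in controls and 220, 166 and 268 without Dicer (log2 1.99 ± 0.51, adjusted p = 0.139). After LPS it read 13.9 and 20.9 against 83.3 and 95.5 (log2 2.32 ± 0.54, adjusted p = 0.126). With 2 or 3 libraries a group, DESeq2 on the recovered reads called both (adjusted p of 0.00332 and 0.00338), and no other alternative did. The LPS comparisons of a table share libraries with its genotype comparisons.

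At P0 the Prim2 groups overlapped, at 49.4, 62.2 and 58.5 in controls 1 to 3 and 20.8 and 56.2 in the Dicer-deficient libraries (log2 -0.70 ± 0.43, adjusted p = 0.368). The P0 mice carried Cx3cr1Cre and the adults the inducible Cx3cr1CreER, and age and Cre line cannot be told apart here. The difference between the ages was not tested, as the tables were scaled separately.

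**Figure D3:**
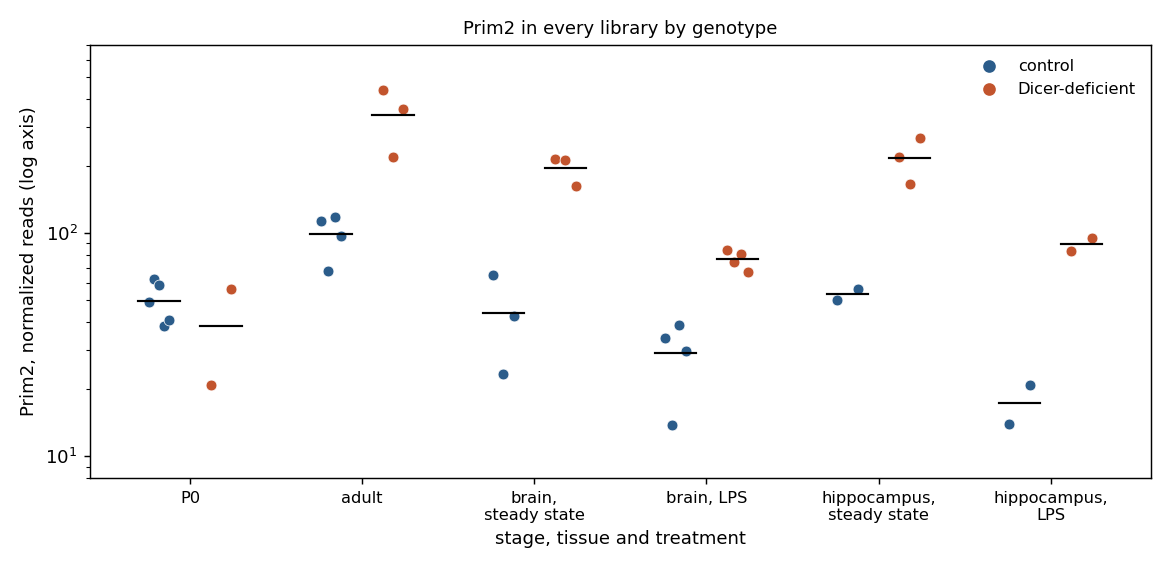
Prim2 in every library, on a log axis of normalized reads, by setting. Blue points are controls (all 5 at P0), orange points are Dicer-deficient libraries and bars are group means. In the 5 adult-age settings every orange point lies above every blue point, and at P0 the points are mixed; levels are not comparable between tables.

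The genes next to Prim2, chosen after their values were seen, are given by their means only. Rab23, the nearest protein-coding gene on one side in the RefSeq table, had means of 42.2 and 42.2 in adult control and Dicer-deficient libraries, 19 and 11.8 in total brain at steady state, and 18.2 and 15.3 after LPS. Khdrbs2, the nearest on the other side, was at 0 in all libraries of the 3 tables. Zfp451, which lies beyond Rab23, had 61.8 and 44.5, 65.1 and 60.1, and 72.5 and 68 in the same order, and 52.5 and 113 in the hippocampus at steady state and 54.4 and 91.1 after LPS. In both hippocampal settings the lowest Dicer-deficient library lay above the highest control for Zfp451. Rab23 had 26.4 and 21.8 in the hippocampus at steady state and 18.3 and 16.6 after LPS. Bag2, between Rab23 and Zfp451, had means of 0 to 14.3 over all of these groups. Prim2 overlaps 2 pseudogenes in the same table, Gm29228 and Gm17813, and how the authors' counting treated reads shared with them is not given in the sources used here.

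Mcm3 read 337, 359, 322 and 313 in the adult controls and 275, 151 and 125 without Dicer, with no overlap (log2 -0.94 ± 0.25, adjusted p = 0.0402). This call was kept in 6 of 14 alternatives. It was lost without Dicer-deficient library 2 or 3 (adjusted p = 0.0809 and 0.139) and without any 1 of the 4 controls (adjusted p = 0.0857 to 0.102). Rrm1 had the next smallest p in this table, at 94, 91.7, 64.4 and 46.2 against 135, 77.2 and 213 (log2 0.86 ± 0.40, adjusted p = 0.25), with overlap. None of 34 other replication genes tested passed with limma, nor any of 19 mitosis genes, and 4 and 1 of them were under an unadjusted p of 0.05. Of 26 genes of E2F and S phase control, Myc was lower (log2 -1.47, adjusted p = 0.00392) and Rbl1, a relative of the retinoblastoma protein, higher (log2 1.18, adjusted p = 0.0355).

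In total brain at steady state Prim2 was the 1 member called of 38 tested, with 0.916% of all 12117 genes higher and 1.57% lower. The median was -0.17 over the members and -0.10 over all genes. Uhrf1 read 8.5, 2.5 and 8 in controls and 1, 0.7 and 1.9 without Dicer (log2 -1.64 ± 0.53, adjusted p = 0.121). Rrm2 read 0, 2.5 and 0 against 7.7, 7.7 and 6.7 (log2 2.46 ± 0.93, adjusted p = 0.178). Both were separated in every library, at levels of at most 11 reads. Among the members, 2 lay higher and 5 lower in every Dicer-deficient library here. The share of all genes was not counted.

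After LPS, Prim2 was higher and Dut lower of 38 members tested, where 4.25% of all 12037 genes were higher and 5.93% lower, and the medians were -0.37 and -0.10. Dut read 16.5, 14.7, 15.4 and 20.8 in controls and 3.7, 0, 2.4 and 4.9 without Dicer, 5.68-fold lower (log2 -2.51 ± 0.67, adjusted p = 0.0244). All 4 Dicer-deficient libraries held at most 9 Dut reads. The call was lost without Dicer-deficient library 36 or 37 (adjusted p = 0.0818 and 0.0527) or control 17 (0.0503), which left no lower member. Without Dicer-deficient library 35 there were 3 lower members and without control 33 there were 2. Pold1, the catalytic subunit of polymerase delta, read 67.1, 52.8, 61 and 66.4 against 58.3, 25.4, 29 and 28.4, where library 35 lay with the controls (log2 -0.87 ± 0.28, adjusted p = 0.0608). Of 36 other replication genes tested, 1 was higher and 2 were lower, of 26 genes of E2F and S phase control 2 were higher and 2 lower, and of 19 mitosis genes none passed. Those with the smallest p were Donson, higher by 1.75 (adjusted p = 0.000232), Cdk6, a G1 kinase, higher by 0.96 (adjusted p = 0.00111), Ccnd1, a D-type cyclin (log2 -0.96, adjusted p = 0.0119), and Rnaseh2a, a subunit of ribonuclease H2 (log2 -1.21, adjusted p = 0.0162). Markers of other cells differed as well. Markers of monocytes and neutrophils summed to 939 to 3877 in the Dicer-deficient and 564 to 4468 in the control LPS libraries, with 14 and 15 of 15 above 0. Of the 12 tested, 3 were higher without Dicer (Ly6c2, Ccr2 and Plac8, by 2.30 to 2.89 on the log2 scale) and none lower, and all 12 differences were positive. Astrocyte and oligodendrocyte markers summed to 1170 to 2097 without Dicer and 630 to 931 in controls (7 of 10 above 0 in both), and lymphocyte markers to 1.7 to 12.6 and 41.1 to 148 (2 of 6 above 0 in both). Of 12 microglial markers, Fcrls (log2 -1.59) and Cx3cr1 (log2 -1.05) were lower. The 12 summed to 44167 to 52312 without Dicer and to a wider 42776 to 88844 in controls. The part of these markers in the Prim2 and Dut results was not tested.

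Few members were called for the response to LPS itself, and whether these were fewer than among all genes was not tested. In control total brain none of 39 members passed with limma, where 7.84% of all 12429 genes were called higher and 7.8% lower. Of these, 2 were at an unadjusted p under 0.05, and neither edgeR nor DESeq2 called any. The 3 with the smallest p were Gins4 at 87, 90.8 and 94.2 before and 73.3, 53.6, 58.1 and 72.3 after LPS (adjusted p = 0.135), Lig1 (mean 41.3 ± 6.65, n = 3, and 21 ± 17.4, n = 4, SD, adjusted p = 0.15) and Mcm7 (adjusted p = 0.171). Without control 33, 1 member was higher and 1 lower. Microglial markers summed to 92409 to 97078 in controls at steady state and 42776 to 88844 after LPS. The highest control LPS library thus lay near the steady-state range. In Dicer-deficient libraries the sums were 90399 to 96363 and 44167 to 52312. The part of this spread in the LPS and genotype results was not tested.

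In Dicer-deficient total brain, Tyms rose after LPS and Mcm7, Prim2, Rpa1 and Gins4 fell, of 38 members tested. Of all 12328 genes, 13.5% were called higher and 14.2% lower, and the members' share was below that of all genes in both directions. Tyms, thymidylate synthase, read 12.5, 12.6 and 19 before and 29.6, 31.3, 44.9 and 43.2 after LPS, with no overlap (log2 1.29 ± 0.32, adjusted p = 0.006). Mcm7 read 100, 136 and 90.4 before and 59.3, 54.2, 45.5 and 44.3 after (log2 -1.07 ± 0.25, adjusted p = 0.00376). Prim2 fell by 1.34 ± 0.35 (adjusted p = 0.00819), and its level after LPS stayed above that of all control libraries in that table. Rpa1, a subunit of the single-strand binding complex, read 100, 150 and 94.2 before and 76.8, 52.5, 65.6 and 64.5 after (log2 -0.80 ± 0.22, adjusted p = 0.0139). It was no longer called without Dicer-deficient library 11b (adjusted p = 0.0666). Gins4 read 74.2, 98.4 and 85.7 before and 41.7, 46.6, 49.7 and 62.3 after (log2 -0.78 ± 0.22, adjusted p = 0.0142). Erythroid markers summed to 83.6 to 451 before and 2957 to 6963 after LPS in these libraries, with 7 of 9 above 0 in both, and their part was not tested.

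The LPS response was not shown to differ by genotype for any member. The interaction term, the LPS effect without Dicer minus that in controls, was called for none of 41 members with limma, edgeR or DESeq2, against 0.127% of 13423 genes higher and 0.0447% lower. An unadjusted p under 0.05, to which those shares do not apply, was reached by 2 members. They were Tyms (1.29 ± 0.46, adjusted p = 0.323) and Rrm2 (-2.83 ± 1.19, adjusted p = 0.447). Gins3 followed at -1.72 ± 0.83 (adjusted p = 0.539).

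In the hippocampus no member passed in any comparison with edgeR or with limma and a pseudocount of 1. With a pseudocount of 5, limma called 1 member higher for LPS in controls. The shares of all genes called higher and lower were 0.22% and 0.0617% for Dicer loss at steady state, 0.199% and 0.164% after LPS, 2.7% and 3.36% for LPS in controls, and 4.28% and 5.23% for LPS without Dicer. Members at an unadjusted p under 0.05 numbered 4 of 37, 2 of 35, 5 of 36 and 2 of 35 in the same order. The shares just given are at an adjusted p, so they are no baseline for these counts. DESeq2 called 2 higher for Dicer loss at steady state, 1 higher after LPS, and 1 lower for LPS in controls. Beside Prim2, the smallest p for Dicer loss at steady state belonged to Rpa2, a single-strand binding subunit, with 6.17 and 14.9 in controls and 89.8, 76.6 and 91.6 without Dicer (log2 3.02 ± 0.73, adjusted p = 0.111). Pola1, the catalytic subunit of polymerase alpha, came next, with 4.8 and 5.48 in controls and 0 in all 3 Dicer-deficient libraries. The hippocampal groups of both genes were separate, whereas in total brain at steady state Rpa2 read 52, 52.1 and 74.7 against 57.8, 105 and 60, with overlap. Monocyte and neutrophil markers summed to 8508 to 8891 in the Dicer-deficient and 1622 to 3284 in the control hippocampus at steady state, with 13 of 15 above 0 in both, and their part was not tested.

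After LPS the hippocampal values of Pold2 were 105 and 174 in controls and 15.3 and 40.4 without Dicer (log2 -2.39 ± 0.80, adjusted p = 0.325), and those of Gins4 were 62.8 and 57.8 against 2.78 and 40.4 (adjusted p = 0.545). Orc6, a subunit of the origin recognition complex, had 2.06 and 0 at steady state and 28.6 and 21.6 after LPS in controls (log2 3.88 ± 1.16, adjusted p = 0.0737), and 0, 0 and 2.43 and then 12.5 and 11.4 without Dicer (adjusted p = 0.104). Uhrf1 was at 0 in both steady-state controls and at 12.2 and 6.35 after LPS (adjusted p = 0.155). Rfc3, a clamp loader subunit, had means of 112 ± 48.9 (SD, n = 3) and 41.5 ± 17.8 (SD, n = 2) before and after LPS without Dicer (adjusted p = 0.21). The hippocampal interaction was called for none of 39 members with limma, edgeR or DESeq2, where 0% of 12366 genes were higher and 0.0162% lower. An unadjusted p under 0.05, to which those shares do not apply, was reached by 3 members. They were Pola1, Rpa2 and Pold2, with adjusted p of 0.796, 0.808 and 0.828.

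**Figure D4:**
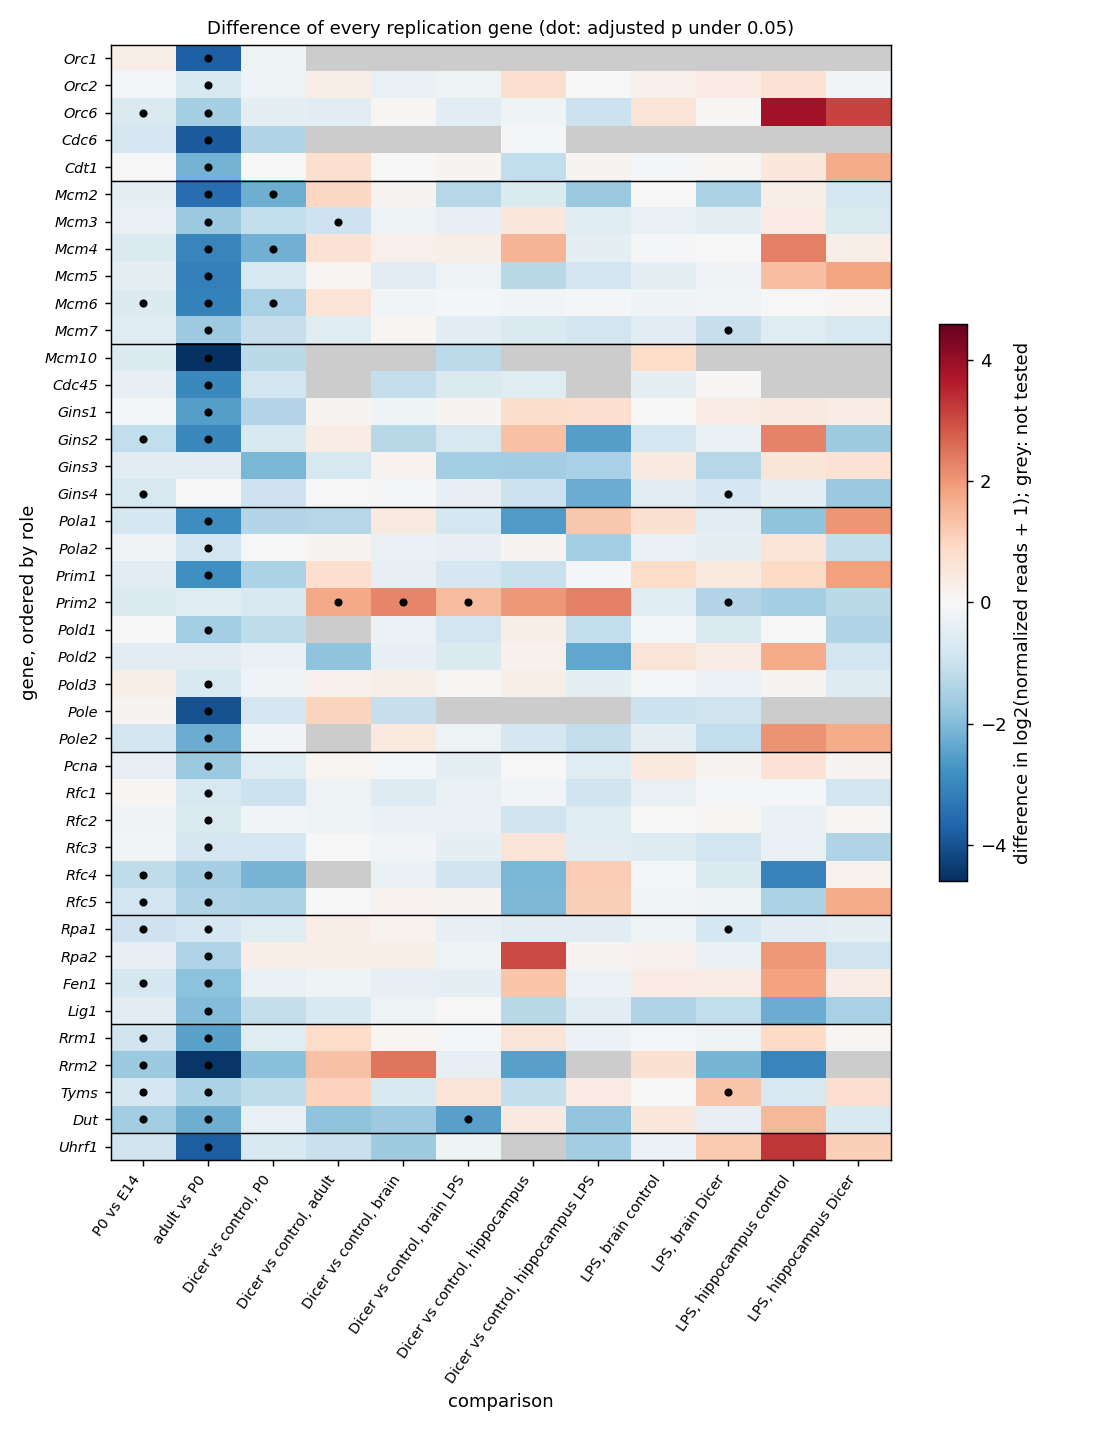
Difference in log2(normalized reads + 1) of all 41 members (from top to bottom, by role, lines between roles) in 12 comparisons (from left to right). Blue is lower, red higher, grey not tested, and a dot marks an adjusted p under 0.05. Adult against P0 is on the blue side for every gene with 37 dots, and Gins4 is nearly white there. Prim2 is red in each of the 5 comparisons of Dicer loss at adult age.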

How the data were processed

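The deposited signal is a read count per gene times a constant of its library, as found from the values. Within 0.1 read, 100% of the values above 0 were whole multiples of that constant in each of the 4 tables, so depth (898451 to 4573063 reads) was recovered; intervals from it cover counting error only. RNA was captured on oligo(dT) beads, per the labels' protocols. Bcl2fastq, HISAT 0.1.5, SAMtools, HOMER, DESeq2 and build mm9 are named per the submitters' processing notes; annotation, molecular identifiers and the scaling step are not given in the sources used here. Some steady-state labels of total brain also say PBS, without a word on injection.

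Limma 3.58.1 (R 4.3.3, trend) was fitted to log2(value + 1), 1 fit per table with 1 mean per group, and for P0 genotype on its own 5 libraries. Genes with a value of 1 or more in fewer libraries than the smaller group holds were left out. P-values were Benjamini-Hochberg adjusted over all genes tested, and called means under 0.05. Shares of all genes called are at that threshold, so they are no baseline for counts at an unadjusted p. Alternatives were a pseudocount of 0.1 or 5, no filter, edgeR 4.0.16 (TMM, RLE) and DESeq2 1.42.0 on recovered reads, only the groups compared, all P0 controls, the replicate number as a block, and each library left out. For P0 genotype, leaving out control 4 and scaling to 1000000 reads were added after seeing the data. The script was tested on simulated data.

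Members, lists and the rule for named genes were chosen with earlier results of these data known. The rule names, for stages, the smallest p of each role, the 3 largest and 3 smallest called changes and every uncalled member, and for other comparisons up to 12 called members, or the 3 smallest p. Promoters come from RefSeq (GRCm38.p6), a later build than the files'.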

Additional observations from a re-analysis of the deposited data

Results flagged for a closer look

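Groups of 4 to 10 libraries were checked by Dixon's test at the 95% level. In 20 of 186 groups, 1 library stood apart from the others. Chance alone flags about 1 in 20 only for independent, normally distributed values. Here the same libraries recur across genes, and some groups hold few reads. The mean over the 41 members, also checked, contains the single genes. That rate is therefore no baseline for this count, and an excess over chance was not tested. P0 control 4 was low 5 times: for Gins2 at 90.3 normalized reads (others 111 to 119), Mcm3 at 219 (309 to 336), Lig1 at 54.3 (128 to 157), Rpa2 at 85 (112 to 119) and for the mean log2 level over the 41 members at 5.76 (6.28 to 6.39). P0 control 3 was low for Dut at 25.8 (44.8 to 49). In the same table Pcna was high in adult library 2 at 116 (81.3 to 91.2), and Pola1 was low in E14 library 2 at 23.9 (38 to 39.1).

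Control 33 of total brain after LPS stood apart 4 times, with Cdc6 at 4 (others 0), Rrm2 at 13.9 (0 to 1.5), Mcm3 at 142 (80.5 to 83) and Pola1 at 2 (5.9 to 6.2), and control 32 once, with Uhrf1 at 7.4 (3.5 to 4.1). Among the Dicer-deficient libraries after LPS, library 38 had Mcm10 at 3.3 (others 0) and Pola1 at 7.1 (0.9 to 1.8), library 37 had Pold3 at 82.8 (75 to 76.3) and library 35 had Pold1 at 58.3 (25.4 to 29). In the adult table control 1 had Cdc6 at 4.95 (others 0), and control 3 had Rrm2 at 5.37 (others 0) and Gins3 at 91.3 (35.9 to 44.5). These Cdc6 and Rrm2 values are 1 read each. In total brain after LPS, Cdc6 in control 33 is 4 reads and Mcm10 in library 38 is 6 reads.

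In 6 of the 41 genes every Dicer-deficient library lay below the controls in at least 1 comparison and above them in at least 1 other. None of these differences between comparisons was tested. The share of all genes with such a pattern was not counted. At P0 alone, both Dicer-deficient libraries lay below controls 1 to 3 in 20.6% of all genes, so separation in groups this small is common. Mcm6 had a log2 difference of -1.49 at P0 and 0.64 in the adult table. Rrm2 had -1.91 at P0 and 2.46 in total brain at steady state, and Mcm4 had -2.21 at P0 and 1.56 in the hippocampus at steady state. Gins1 had -1.34 at P0 and 0.82 and 0.78 in the hippocampus at steady state and after LPS. Rfc5 had -1.45 at P0 and 1.11 in the hippocampus after LPS. Pola1 had -1.35 at P0, -2.62 in the hippocampus at steady state, where its Dicer-deficient libraries were all at 0 and the fitted value depends on the pseudocount, and 1.25 in the hippocampus after LPS.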

How the results depend on the processing

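Of 1744 alternative values over 103 called member results, 1679 kept the call, 65 lost it and 0 changed direction. Most of the 103 were calls between stages. Alternatives in which a gene was not tested are not counted. Orc1 therefore had 13 values from P0 to adult, against 18 for the others. From E14 to adult it had 13 against 17. From E14 to P0 the 12 lower members became 23 with only the groups compared, 19 with the replicate number as a block and 7 to 11 with 1 library left out. At P0 the 3 members lower without Dicer became 1 with a pseudocount of 0.1, 6 with edgeR (TMM or RLE), 7 with DESeq2, 16 with all P0 controls, 18 without control 4, 7 when scaled to 1000000 reads, 6 with the replicate block and 0 to 20 with 1 library left out, and the higher ones 0 to 1; scaling to 1000000 reads moved the median of all genes from -0.06 to -0.29 and that of the members from -0.79 to -1.04. In the adult table the 1 lower member was lost with a pseudocount of 0.1 and with the replicate block (0 each), and was 0 to 1 with 1 library left out. In total brain after LPS the 1 lower member became 0 with a pseudocount of 0.1 and 0 to 3 with 1 library left out. For LPS in control brain leaving out 1 library gave 0 to 1 in each direction. In the hippocampus DESeq2 gave 2 higher for Dicer loss at steady state and 1 after LPS, and for LPS in controls 1 lower, and a pseudocount of 5 gave 1 higher. The cause was not tested. Replicate numbers did not pair the samples (correlations of deviations of -0.21 to 0.10 between libraries of the same number), so the block is a shared number only. It left out libraries without a partner number (among them P0 control 5 against E14, P0 control 3 and adult control 4 against Dicer-deficient libraries). It changed no other count by over 1.5 times. Few reads limit Cdc6, Rrm2, Dut, Uhrf1 and Mcm10 in adult microglia.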
